A study of Mus musculus with 9 samples.

Results

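The 46 genes described here make up the synaptic and secretory vesicle apparatus of neurons and neuroendocrine cells, and were taken by symbol from a table of 24100 genes. All 46 were found, and all 46 passed the filter on low counts. Poly(A) RNA was measured in cells, neural by label, grown from mouse embryonic stem cells (mESCs) that stably carried a PiggyBac transgene for triple-HA-tagged histone H4. The transgene encoded H4K91R in 3 libraries (arginine in place of lysine), H4K91Q in 3 libraries (glutamine in place of lysine) and unchanged H4WT in 3 libraries, so the controls expressed a tagged histone as well. PiggyBac is a transposon that inserts a transgene into the genome, and HA is a short peptide tag. The names of all libraries share a mark that may stand for a day of differentiation or for a protocol. Its meaning is not explained, so the age of the cultures is not known here. The labels do not state the promoter of the transgene, the number of clones behind a group, or whether the 3 libraries of a group came from separate cultures, so p-values measure only the spread between libraries, which may be technical.

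Neurons release transmitters from small synaptic vesicles and peptides from larger dense-core granules. In both cases, SNARE proteins on the vesicle and on the plasma membrane zip together and drive fusion, synaptotagmins sense calcium, complexins and Munc13 proteins prepare the vesicle, and Rab3 proteins with the active zone scaffold bring it to the release site. Granins help to form the dense core, and prohormone convertases and carboxypeptidase E cut the precursors inside it. Many genes of this apparatus are held silent outside neurons by the repressor REST, which binds a DNA element called RE1, and several granin genes are activated through the cAMP response element (CRE).

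The promoters of the 46 genes were read first. RefSeq windows on GRCm38.p6, from 250 bases before to 50 bases after a transcription start, were found for 34 of the 46 genes, 45 windows in all, and a motif was counted for a gene if any of its windows held it. Snap25, Vamp2, Doc2b, Syt4, Syt5, Syt7, Syt13, Syn3, Syngr3, Rims2, Cpe and Nsg1 had none. Letters were searched on both strands, and no allowance was made for overlap between motifs. The CRE palindrome TGACGTCA stood in the windows of 3 of 34 genes (8.82%), Scg2, Chgb and Syn1, and in 3.53% of 11629 tested genes with a window. The core of RE1, a 15-letter motif searched with up to 2 mismatches, stood in 3 of 34 (8.82%), Syn1, Syt2 and Syt6, and in 2.55% of the 11629. The E-box CAGCTG, the letters bound by many neurogenic bHLH factors, stood in 14 of 34 genes (41.2%) and in 18.2% of the 11629. Its carriers included Sypl, lower in both mutants, and Stx1a, lower in H4K91Q, and the other carriers were higher in H4K91R, as were 42 of all 46 genes. The GC box GGGCGG stood in 26 of 34 (76.5%) and in 68.1%, and TATAAA in 3 of 34 (8.82%) and in 9% of the 11629. These are matches of letters, not bound sites, and no binding was measured. Their part in the changes of the genes was not tested. The stretches below hold the CRE or RE1 matches of 4 genes that were higher in both mutants, as were 39 of the 46. They are printed 5′ to 3′ on the strand of the gene, with the match in capitals.
Chgb, bases 100 to 1 before the start, chr2:132781542-132781641, plus strand, CRE in capitals: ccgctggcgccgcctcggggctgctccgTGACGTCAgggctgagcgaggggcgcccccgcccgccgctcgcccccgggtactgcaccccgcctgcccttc
Scg2, bases 100 to 1 before the start, chr1:79440027-79440126, minus strand, CRE in capitals: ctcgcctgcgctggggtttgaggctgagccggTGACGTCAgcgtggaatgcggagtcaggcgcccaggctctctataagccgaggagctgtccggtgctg
Syn1, bases 250 to 141 before the start, chrX:20921059-20921168, minus strand, RE1 core with 1 mismatch and then CRE in capitals: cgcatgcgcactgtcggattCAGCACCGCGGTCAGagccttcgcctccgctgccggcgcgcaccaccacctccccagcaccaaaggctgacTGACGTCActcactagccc
Syt2, bases 150 to 81 before the start, chr1:134646462-134646531, plus strand, RE1 core with 2 mismatches in capitals: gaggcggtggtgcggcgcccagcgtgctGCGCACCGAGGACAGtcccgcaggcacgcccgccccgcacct
The CRE began 72 bases before the start in Chgb, 68 in Scg2 and 159 in Syn1, and the RE1 core of Syn1 lay upstream of its CRE.

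Total counts ran from 8970553 to 28887501 per library, with a median of 16364686. Levels are CPM, counts scaled to a common library total on the TMM scale, where a count of 0 allows up to 0.111 to 0.367 CPM depending on the library, for counting error only. Changes are log2 differences between group means with their standard errors (SE), from edgeR's quasi-likelihood test. A gene counts as higher or lower where its Benjamini-Hochberg adjusted p over 14761 genes is under 0.05. The neural label was checked on 26 pan-neuronal genes outside the 46, such as Tubb3, Dcx and Map2. All 26 were detected in the 3 groups, and their summed level was 2656 to 3096 CPM in H4K91R libraries, 2076 to 2293 CPM in H4K91Q libraries and 1773 to 2006 CPM in H4WT libraries. Smooth muscle markers, a sign of other cells, summed to 485 to 771 CPM in H4K91R, 454 to 509 CPM in H4K91Q and 4025 to 4840 CPM in H4WT.

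Most of the vesicle genes, a set chosen with earlier results of these data known, were higher in both mutants. In H4K91R, 42 of 46 were higher than in H4WT and 2 were lower, against 20.9% higher and 25.1% lower among all genes tested. All 3 H4K91R libraries lay above all 3 H4WT libraries for 42 of the 46 (25% of all genes) and below them for 2 (30.1% of all genes). The median log2 change of the 46 was 1.46, where that of all genes was -0.03, and 38 of the 46 were at least 2-fold higher. In H4K91Q, 39 of 46 were higher than in H4WT and 3 were lower, against 22.5% and 23.8% of all genes tested. All 3 H4K91Q libraries lay above all 3 H4WT libraries for 39 of the 46 (27.4% of all genes) and below them for 4 (27.7% of all genes), which are the 3 lower genes and Rims1. Here the median log2 change was 1.11, where that of all genes was 0.01, and 25 of the 46 were at least 2-fold higher. The mutants share their 3 control libraries, so the changes are given side by side and their likeness is no separate result. Scaling by library size alone moved the median of all genes to 0.153 in H4K91R and 0.181 in H4K91Q, and split all calls into 5031 higher and 2013 lower in H4K91R (3092 and 3705 on the TMM scale) and 5557 higher and 2069 lower in H4K91Q (3314 and 3516 on the TMM scale). In bulk RNA, more cells of a type and more RNA per cell cannot be told apart.

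**Figure D1:**
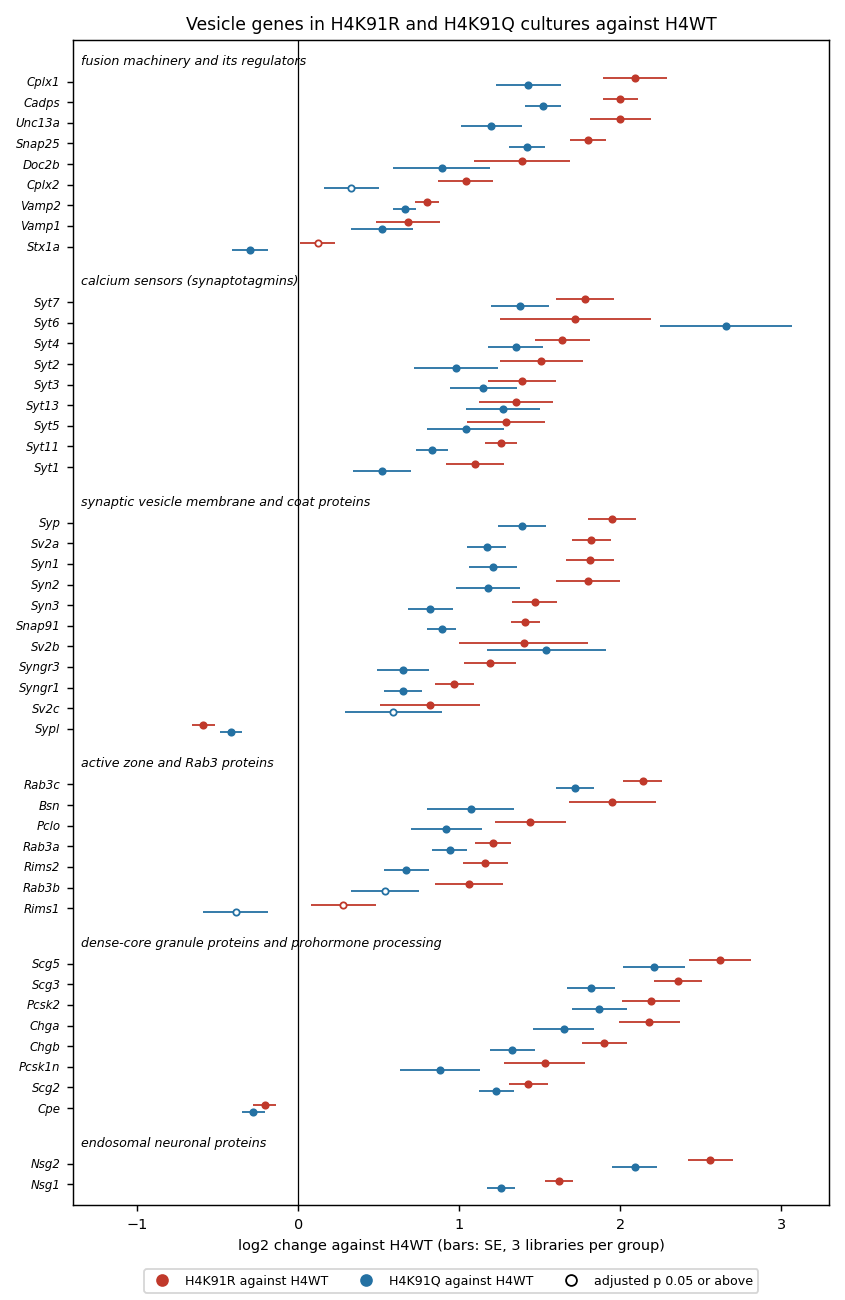
Log2 change of each of the 46 vesicle genes in H4K91R (red) and H4K91Q (blue) against H4WT, with SE bars, grouped by role; open points missed the adjusted threshold. Points right of 0 are higher in the mutant: nearly all lie there, and Sypl and Cpe lie left of 0 in both mutants.

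Without Cpe, which alone gave a large share of the sum, the vesicle genes added up to 1112 to 1277 CPM in H4K91R libraries, 882 to 944 CPM in H4K91Q libraries and 472 to 518 CPM in H4WT libraries. The 3 ranges did not overlap. The median member stood 1.40, 1.54 and 1.64 above the H4WT mean on the log2 scale in H4K91R replicates 1, 2 and 3. It stood at 1.0, 1.08 and 1.22 in H4K91Q and at -0.13, 0.06 and 0.02 in H4WT. Replicate 1 was the lowest library of each group by this measure, and was the lowest of its group for 29 of the 46 genes in H4K91R, 26 in H4K91Q and 32 in H4WT.

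Of the 9 genes of the fusion machinery and its regulators, 8 were higher in H4K91R and 7 in H4K91Q, with median log2 changes of 1.39 and 0.89. Snap25, the plasma membrane SNARE that pairs with syntaxin, was at 26, 25.3 and 29.6 CPM in H4K91R libraries, 22, 19.5 and 20.2 CPM in H4K91Q libraries and 7.58, 7.96 and 7.35 CPM in H4WT libraries. Every mutant library thus lay above every H4WT library, and every H4K91R library above every H4K91Q library. Its log2 change was 1.80 ± 0.11 in H4K91R (edgeR adjusted p = 1.09e-07) and 1.42 ± 0.11 in H4K91Q (edgeR adjusted p = 8.47e-07). Vamp2, the main SNARE of the synaptic vesicle, was at 66.8, 73.4 and 63.6 CPM in H4K91R, 62, 61.8 and 60.7 CPM in H4K91Q and 39, 38.1 and 40 CPM in H4WT. It was the highest of these 9 genes per kilobase of exon, with 24 CPM per kb in H4K91R, 21.8 in H4K91Q and 13.8 in H4WT, and changed less than Snap25, by log2 0.80 ± 0.074 and 0.66 ± 0.073. Vamp1, a second vesicle SNARE, had log2 changes of 0.68 ± 0.20 in H4K91R and 0.52 ± 0.19 in H4K91Q; the H4K91Q call (edgeR adjusted p = 0.0412) was lost, at 0.0506 to 0.138, when any 1 of 8 libraries was left out, and held without H4K91Q replicate 3. It was also lost under DESeq2 (0.105), without the filter on low counts (0.0626) and in a fit of the compared groups only (0.0634).

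In H4K91R the largest changes among the fusion genes were those of 3 regulators, Cplx1, Cadps and Unc13a. Cplx1, a complexin that clamps and then promotes fusion, was at 9.5, 11 and 11.9 CPM in H4K91R, 6.35, 7.32 and 6.8 CPM in H4K91Q and 1.56, 3.11 and 2.2 CPM in H4WT. Cadps, which primes dense-core granules, was at 32.2, 38.6 and 36.7 CPM in H4K91R, 24.8, 25.6 and 26.4 CPM in H4K91Q and 7.82, 8.93 and 10 CPM in H4WT. Unc13a, which encodes the priming factor Munc13-1, was at 22.3, 26.3 and 23.5 CPM in H4K91R, 12.2, 13.1 and 16.2 CPM in H4K91Q and 4.45, 5.33 and 8.82 CPM in H4WT. For these 3 genes the groups did not overlap, with H4K91R highest and H4WT lowest. Their log2 changes in H4K91R were 2.09 ± 0.20 for Cplx1, 2.0 ± 0.11 for Cadps and 2.0 ± 0.19 for Unc13a. In H4K91Q they were 1.43 ± 0.20, 1.52 ± 0.11 and 1.2 ± 0.19 in the same order. Cplx2, the second complexin, was at 46.6, 36.1 and 31.3 CPM in H4K91R, 27.4, 20.9 and 21.4 CPM in H4K91Q and 22.6, 15.1 and 19.6 CPM in H4WT. Its H4K91Q and H4WT libraries overlapped: it was higher in H4K91R (1.04 ± 0.17) and not called in H4K91Q (0.33 ± 0.17, edgeR adjusted p = 0.143; 0.0247 on library size alone, 0.0361 with the replicate number as a block). Doc2b, a calcium sensor for spontaneous and granule release, changed by log2 1.39 ± 0.30 in H4K91R and 0.89 ± 0.30 in H4K91Q. The H4K91Q call of Doc2b (edgeR adjusted p = 0.0275) was lost without H4K91Q replicate 1 or any 1 H4WT replicate, at 0.0611 to 0.118.

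Stx1a, syntaxin 1A, the plasma membrane partner of Snap25, did not follow the other fusion genes. It was at 14.5, 12.4 and 14.9 CPM in H4K91R, 10, 10.3 and 10.7 CPM in H4K91Q and 13.1, 12.7 and 12.6 CPM in H4WT. The H4K91R libraries lay on both sides of H4WT, and the H4K91Q libraries lay below both groups. It was not called in H4K91R (log2 0.12 ± 0.11, edgeR adjusted p = 0.377) and was lower in H4K91Q (-0.30 ± 0.11, edgeR adjusted p = 0.0331). That H4K91Q call was lost under DESeq2 (0.0725), without the filter (0.0627), on library size alone (0.304), and without H4K91Q replicate 1 (0.0937), H4K91Q replicate 2 (0.073) or any 1 H4WT replicate (0.0597 to 0.0726). On library size alone Stx1a was called higher in H4K91R, by log2 0.31.

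All 9 synaptotagmins, the calcium sensors and their relatives, were higher in both mutants, with median log2 changes of 1.39 in H4K91R and 1.15 in H4K91Q. Syt11, which does not bind calcium, was at 102, 123 and 127 CPM in H4K91R, 80.3, 92.2 and 88.1 CPM in H4K91Q and 42.2, 52 and 51.7 CPM in H4WT. It was the highest synaptotagmin per kilobase in every group, at 22.8 CPM per kb in H4K91R, 16.8 in H4K91Q and 9.42 in H4WT. Syt4, a synaptotagmin of dense-core granules, was at 22.8, 29.5 and 30.6 CPM in H4K91R, 19.8, 27.1 and 20.4 CPM in H4K91Q and 7.09, 10.1 and 8.33 CPM in H4WT. Both mutants lay above H4WT for Syt11 and Syt4, and for Syt4 the 2 mutants overlapped. Syt7, a slow, high-affinity sensor, was at 11.9, 13.2 and 9.75 CPM in H4K91R, 7.63, 8.47 and 10.6 CPM in H4K91Q and 3.13, 3.59 and 3.31 CPM in H4WT. Syt3, a calcium sensor of high affinity, was at 4.2, 4.25 and 4.92 CPM in H4K91R, 3.6, 4.14 and 3.46 CPM in H4K91Q and 1.32, 2 and 1.35 CPM in H4WT. The mutants lay above H4WT for both genes, and the mutants overlapped for Syt7 but not for Syt3. The H4K91R changes were 1.26 ± 0.10 for Syt11, 1.64 ± 0.17 for Syt4, 1.78 ± 0.18 for Syt7 and 1.39 ± 0.21 for Syt3. The H4K91Q changes were 0.83 ± 0.10, 1.35 ± 0.17, 1.38 ± 0.18 and 1.15 ± 0.21 in that order.

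Syt1, the fast sensor of synaptic release, averaged 23.3 ± 1.58 CPM in H4K91R, 15.4 ± 1.3 CPM in H4K91Q and 10.5 ± 3.54 CPM in H4WT (SD, n = 3 each). Its H4WT replicate 1 was at 6.37 CPM, and the other two H4WT libraries were at 12.5 CPM. Its log2 change of 0.52 ± 0.18 in H4K91Q (edgeR adjusted p = 0.0312) fell to 0.30 without that library (adjusted p = 0.0618), and the call was also lost without H4K91Q replicate 1 (0.104). Syt2, the Syt1 relative of fast synapses, changed by 1.51 ± 0.26 in H4K91R and 0.98 ± 0.26 in H4K91Q, and Syt5 by 1.29 ± 0.24 and 1.04 ± 0.24. Syt13, which lacks the calcium-binding residues, changed by 1.35 ± 0.23 and 1.27 ± 0.23. Syt6 was the lowest of the 9 per kilobase in H4K91R and H4WT, and its level was highest in H4K91Q. It was at 0.806, 1.89 and 1.28 CPM in H4K91R, 1.93, 2.99 and 2.58 CPM in H4K91Q and 0.12, 0.444 and 0.49 CPM in H4WT. The groups did not overlap, and the values rest on few counts. Its log2 change was 1.72 ± 0.47 in H4K91R and 2.66 ± 0.41 in H4K91Q. It was singled out after its values were seen.

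Of the 11 genes for synaptic vesicle membrane and coat proteins, 10 were higher and 1 was lower in H4K91R, and 9 were higher and 1 was lower in H4K91Q. The median log2 changes were 1.41 and 0.89. Syp, synaptophysin, a major membrane protein of the vesicle, was at 41.2, 42.1 and 55.9 CPM in H4K91R, 29.4, 34.6 and 29.9 CPM in H4K91Q and 9.86, 13.7 and 11.1 CPM in H4WT. Sv2a, a transporter-like vesicle glycoprotein, was at 33.5, 30.4 and 31.3 CPM in H4K91R, 19.2, 20.2 and 21 CPM in H4K91Q and 6.73, 9.78 and 9.8 CPM in H4WT. Snap91, the neuronal clathrin adaptor AP180, was at 33.6, 36.8 and 33.7 CPM in H4K91R, 23.6, 25.2 and 24 CPM in H4K91Q and 12.5, 13.1 and 13.6 CPM in H4WT. The groups did not overlap for any of the 3, with H4K91R highest and H4WT lowest. In H4K91R the log2 changes were 1.95 ± 0.15 for Syp, 1.82 ± 0.12 for Sv2a and 1.41 ± 0.089 for Snap91. In H4K91Q they were 1.39 ± 0.15, 1.17 ± 0.12 and 0.89 ± 0.088 in that order.

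The synapsins, which tether vesicles to one another and to actin, were all higher in both mutants. Syn1 was at 19.5, 26.1 and 21.5 CPM in H4K91R, 12.8, 14.2 and 17.2 CPM in H4K91Q and 5.89, 6.3 and 6.86 CPM in H4WT. Syn3 was at 17.7, 23.1 and 17.2 CPM in H4K91R, 11.8, 11.8 and 13.7 CPM in H4K91Q and 7.09, 6.82 and 7.23 CPM in H4WT. Syn2 averaged 9.94 ± 1.34 CPM in H4K91R, 6.41 ± 0.576 CPM in H4K91Q and 2.65 ± 0.778 CPM in H4WT (SD, n = 3 each). The order was the same for Syn1, Syn2 and Syn3, with H4K91R highest and H4WT lowest and no overlap. Their H4K91R changes were 1.81 ± 0.15 for Syn1, 1.80 ± 0.20 for Syn2 and 1.47 ± 0.14 for Syn3, and their H4K91Q changes 1.21 ± 0.15, 1.18 ± 0.20 and 0.82 ± 0.14. Syngr3, a neuronal synaptogyrin, was at 13.8, 12 and 15.3 CPM in H4K91R, 8.49, 10.1 and 9.55 CPM in H4K91Q and 5.29, 6.93 and 4.9 CPM in H4WT. The groups did not overlap, with H4K91R highest. Syngr3 changed by 1.19 ± 0.16 in H4K91R and 0.65 ± 0.16 in H4K91Q, and its relative Syngr1 by 0.97 ± 0.12 and 0.65 ± 0.12.

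The other SV2 proteins were low. Sv2b averaged 1.44 ± 0.494 CPM in H4K91R, 1.62 ± 0.238 CPM in H4K91Q and 0.648 ± 0.297 CPM in H4WT (SD, n = 3 each), and changed by 1.40 ± 0.40 and 1.54 ± 0.37. Its call was lost without H4WT replicate 2 in H4K91R (log2 0.89, adjusted p = 0.13 in edgeR) and in H4K91Q (1.03, 0.0696), and without H4K91R replicate 2 in H4K91R (1.13, 0.0582). Sv2c averaged 2.95 ± 0.527 CPM in H4K91R, 2.59 ± 1.02 CPM in H4K91Q and 1.69 ± 0.349 CPM in H4WT. Its H4K91R call (0.82 ± 0.31, edgeR adjusted p = 0.0444) was lost under limma-voom (0.0512) and without H4K91R replicate 1, H4K91R replicate 2, H4K91Q replicate 2 or any 1 H4WT replicate (0.0506 to 0.126). It was not called in H4K91Q (0.59 ± 0.30, edgeR adjusted p = 0.13), and was called without H4K91Q replicate 1 (0.84, 0.0304). Sypl, the broadly expressed relative of Syp, went the other way: it was at 69.2, 73.4 and 71.9 CPM in H4K91R, 77.3, 85.7 and 77.2 CPM in H4K91Q and 114, 103 and 106 CPM in H4WT. Every H4WT library lay above every mutant library. Its log2 change was -0.59 ± 0.071 in H4K91R (edgeR adjusted p = 2.09e-05) and -0.42 ± 0.07 in H4K91Q (edgeR adjusted p = 2.93e-04).

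Of the 7 genes for active zone and Rab3 proteins, 6 were higher in H4K91R and 5 in H4K91Q, with median log2 changes of 1.21 and 0.92. Rab3c, a vesicle GTPase, was at 52.8, 68.7 and 63.8 CPM in H4K91R, 45.5, 44.5 and 49 CPM in H4K91Q and 11.5, 14.3 and 16 CPM in H4WT. Rab3a, its best-known relative at synapses, was at 29.8, 34 and 38.6 CPM in H4K91R, 26.1, 29.2 and 29.1 CPM in H4K91Q and 13.5, 15 and 15.4 CPM in H4WT. The groups did not overlap for either gene. Rab3c changed by 2.14 ± 0.12 in H4K91R and 1.72 ± 0.12 in H4K91Q, and Rab3a by 1.21 ± 0.11 and 0.94 ± 0.11. Per kilobase, however, Rab3a was the higher of the 2 in all groups, at 19.1 CPM per kb in H4K91R, 15.7 in H4K91Q and 8.18 in H4WT, beside 6.95, 5.21 and 1.57 CPM per kb for Rab3c. Rab3b changed by 1.06 ± 0.21 in H4K91R and was not called in H4K91Q (0.54 ± 0.21, edgeR adjusted p = 0.0529). Rab3b was called in H4K91Q on library size alone (0.0145), under limma-voom (0.0422) and without H4WT replicate 3 (log2 0.72, adjusted p = 0.0235).

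Bsn, the giant active zone scaffold bassoon, was at 17.3, 20.5 and 14.9 CPM in H4K91R, 7.85, 7.82 and 13.2 CPM in H4K91Q and 3.01, 4.04 and 7.1 CPM in H4WT. Rims2, which links Rab3 to the active zone, was at 12.4, 14.9 and 13.5 CPM in H4K91R, 8.92, 8.97 and 11.1 CPM in H4K91Q and 5.77, 6.56 and 5.39 CPM in H4WT. The groups did not overlap for Bsn or Rims2, and replicate 3 of H4K91Q and of H4WT was the highest of its group for Bsn. Bsn changed by 1.95 ± 0.27 in H4K91R and 1.07 ± 0.27 in H4K91Q, and Rims2 by 1.16 ± 0.14 and 0.67 ± 0.14. Pclo, piccolo, the relative of bassoon, changed by 1.44 ± 0.22 and 0.92 ± 0.22. Rims1 was the one member called in neither mutant. It was at 5.58, 4.17 and 3.84 CPM in H4K91R, 3.3, 2.44 and 2.93 CPM in H4K91Q and 3.49, 3.78 and 4.16 CPM in H4WT. All H4K91Q libraries lay below all H4WT libraries, while H4K91R and H4WT overlapped. Its log2 change was 0.28 ± 0.20 in H4K91R (edgeR adjusted p = 0.275) and -0.39 ± 0.20 in H4K91Q (edgeR adjusted p = 0.127).

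**Figure D2:**
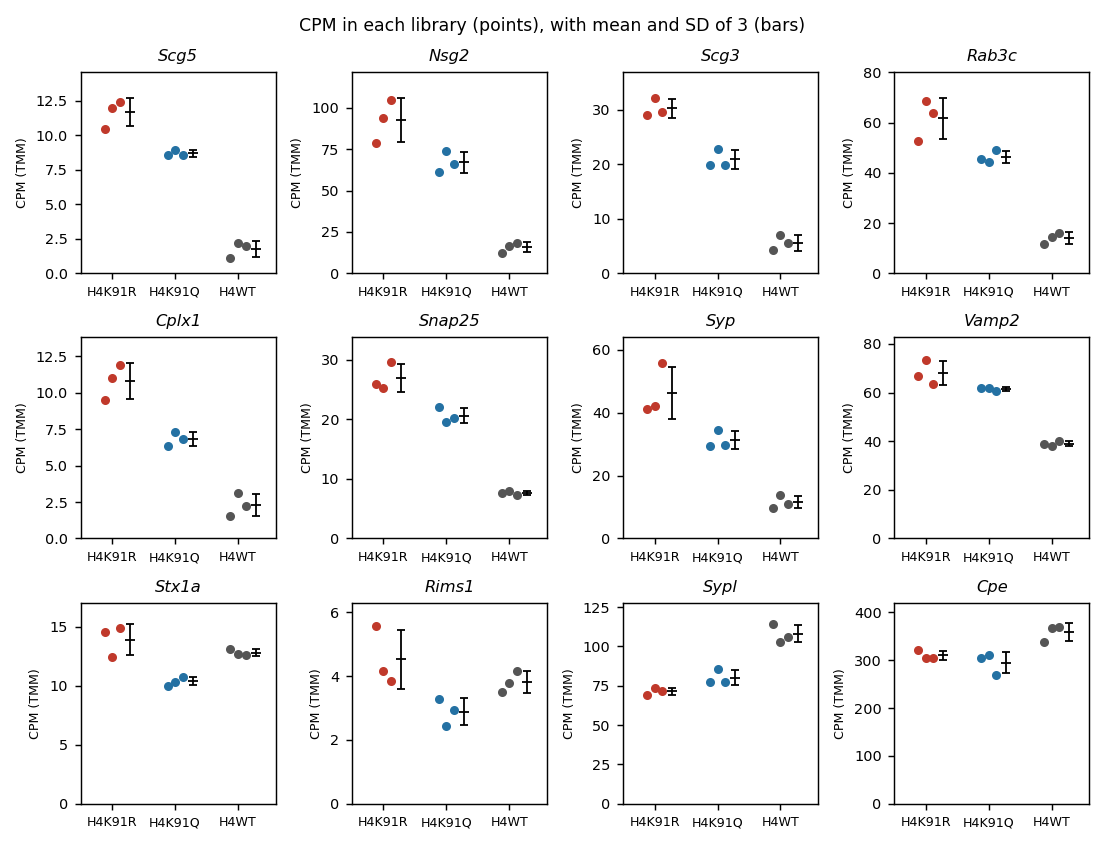
CPM of 12 vesicle genes in each library (points; H4K91R red, H4K91Q blue, H4WT grey) with the mean and SD of 3 libraries (bars), each panel starting at 0. The first 8 panels show genes higher in both mutants, such as Scg5 at 10.5 to 12.4 CPM in H4K91R and 1.08 to 2.19 CPM in H4WT; the last 4 show Stx1a, Rims1, Sypl and Cpe, which were not.

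The 8 genes of the dense-core granule had median log2 changes of 2.04 in H4K91R and 1.49 in H4K91Q, above those of the fusion, synaptotagmin, membrane and active zone genes, and 7 were higher and 1 was lower in each mutant. Scg5, the 7B2 protein that chaperones the convertase PC2, was at 10.5, 12 and 12.4 CPM in H4K91R, 8.58, 8.97 and 8.55 CPM in H4K91Q and 1.08, 2.19 and 1.96 CPM in H4WT. Pcsk2, which encodes PC2 itself, was at 9.78, 14.4 and 13.5 CPM in H4K91R, 10.2, 9.96 and 9.55 CPM in H4K91Q and 2.53, 2.81 and 2.69 CPM in H4WT. For both genes each mutant library was above each H4WT library, and the mutants overlapped for Pcsk2. Scg5 had the largest log2 change of the 46 genes in H4K91R, 2.62 ± 0.19 (edgeR adjusted p = 2.98e-07), and 2.21 ± 0.19 in H4K91Q. Pcsk2 changed by 2.19 ± 0.18 and 1.87 ± 0.17. Pcsk1n, which encodes proSAAS, an inhibitor of the related convertase PC1, changed by 1.53 ± 0.25 and 0.88 ± 0.25.

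The granins among the listed vesicle genes, acidic proteins of the granule core, were all higher in both mutants. Vgf, a granin-like granule protein outside that list, was higher in H4K91R and lower in H4K91Q, as given in the closing section. Scg3 was at 29, 32.2 and 29.7 CPM in H4K91R, 19.9, 22.8 and 19.9 CPM in H4K91Q and 4.21, 7 and 5.51 CPM in H4WT. Chgb, the gene whose promoter is shown with its CRE, was at 21.5, 22.9 and 23.8 CPM in H4K91R, 13.2, 16.4 and 16.2 CPM in H4K91Q and 5.05, 5.85 and 7.47 CPM in H4WT. Neither gene had overlapping groups, and H4K91R was highest for both. Scg3 changed by 2.36 ± 0.15 in H4K91R and 1.82 ± 0.15 in H4K91Q, and Chgb by 1.90 ± 0.14 and 1.33 ± 0.14. Chga, chromogranin A, changed by 2.18 ± 0.19 and 1.65 ± 0.19. Scg2, which also carries a CRE, averaged 27.9 ± 3.79 CPM in H4K91R, 24.1 ± 0.429 CPM in H4K91Q and 10.2 ± 0.561 CPM in H4WT (SD, n = 3 each), a change of 1.43 ± 0.12 and 1.23 ± 0.11.

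Cpe, carboxypeptidase E, which trims cut prohormones, differed from the rest of the granule genes. It was at 321, 304 and 305 CPM in H4K91R, 304, 311 and 269 CPM in H4K91Q and 338, 368 and 370 CPM in H4WT. Each mutant library was below each H4WT library. It was the most abundant of the 46 per kilobase, at 146 CPM per kb in H4K91R, 139 in H4K91Q and 170 in H4WT. The log2 changes were small, -0.21 ± 0.072 in H4K91R (edgeR adjusted p = 0.0279) and -0.28 ± 0.072 in H4K91Q (edgeR adjusted p = 0.00568). On library size alone neither was called for Cpe (-0.03, adjusted p = 0.783, in H4K91R; -0.11, 0.196, in H4K91Q), and the H4K91R call was lost without H4K91R replicate 2, H4K91R replicate 3, H4WT replicate 2 or H4WT replicate 3 (0.0675 to 0.0981).

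Nsg1 and Nsg2 encode small neuronal proteins of endosomes and trafficking vesicles, and both were higher in both mutants. Nsg1 was at 94.1, 106 and 118 CPM in H4K91R, 81.6, 83.6 and 80.9 CPM in H4K91Q and 35.8, 33.4 and 34 CPM in H4WT. Nsg2 was at 78.6, 94.1 and 105 CPM in H4K91R, 61.2, 74.1 and 66.2 CPM in H4K91Q and 12.3, 16.3 and 18.2 CPM in H4WT. The 3 groups did not overlap for Nsg1 or Nsg2. Nsg2 had the second largest change in H4K91R, 2.56 ± 0.14, and 2.09 ± 0.14 in H4K91Q, while Nsg1 changed by 1.62 ± 0.086 and 1.26 ± 0.085. Nsg1 was second to Cpe per kilobase in both mutants, with 39.7 CPM per kb in H4K91R and 30.7 in H4K91Q, against 12.9 in H4WT.

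Set directly against each other, the mutants differed in the size of the vesicle gene change. Of the 46 genes, 0 were higher and 20 were lower in H4K91Q than in H4K91R, against 2.37% higher and 2.78% lower among all genes tested by edgeR. All 3 H4K91Q libraries lay above all 3 H4K91R libraries for 2 of the 46 (12.5% of all genes) and below them for 33 (12.8% of all genes). At an unadjusted p under 0.05, 2 were higher and 33 were lower, where 3299 of all 14761 genes passed in either direction. DESeq2 called 0 higher and 24 lower (346 and 619 among all genes). With limma-voom, 0 were higher and 22 lower (358 and 483 among all genes). The median log2 difference, H4K91Q minus H4K91R, was -0.47, where that of all genes was 0.01, and 43 of the 46 differences were below 0. The count of 20 depended on single libraries: it was 2 without H4K91R replicate 2, 10 without H4K91R replicate 3, 3 without H4K91Q replicate 1 and 3 without H4K91Q replicate 2. Among all genes, the lower calls in these fits numbered 68, 315, 98 and 92 in that order, against 411 in the main fit. Lower calls thus fell among all genes as well, and whether they fell further among the vesicle genes was not tested. In all leave-one-out fits 42 or 43 of the 46 differences stayed below 0. Other lists moved in the same comparison. Of 12 neural progenitor and radial glia markers, 5 were lower in H4K91Q than in H4K91R and 0 higher (median -0.47). Of 10 pluripotent cell markers 9 were higher in H4K91Q than in H4K91R and 0 lower (median 2.22). The part of these markers in the difference was not tested.

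Sv2a and Snap91 were called lower in each of the 9 leave-one-out fits. Sv2a had 19.2 to 21 CPM in H4K91Q and 30.4 to 33.5 CPM in H4K91R, a log2 difference of -0.66 ± 0.11 (edgeR adjusted p = 0.00655), which ran from -0.69 to -0.62 over those fits. Snap91 had 23.6 to 25.2 CPM in H4K91Q and 33.6 to 36.8 CPM in H4K91R, a log2 difference of -0.51 ± 0.081 (edgeR adjusted p = 0.00522), with a range of -0.55 to -0.47. The other 18 calls were each lost in at least 1 of these fits. The largest difference was that of Bsn, -0.89 ± 0.23 (edgeR adjusted p = 0.0464), followed by Unc13a at -0.80 ± 0.17 and Cplx2 at -0.71 ± 0.16. Cplx1 and Syn3 both differed by -0.65, Syn1 by -0.60 and Chgb by -0.57. Syp differed by -0.56, Scg3 and Syngr3 by -0.54, and Rims2 by -0.49. Cadps at -0.48, Nsg2 at -0.46, Syt11 and Stx1a at -0.43, Rab3c at -0.41, Snap25 at -0.39 and Nsg1 at -0.37 make up the 20.

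By role, the lower calls were 6 of 9 fusion genes, 6 of 11 membrane and coat genes, 3 of 7 active zone and Rab3 genes, 2 of 8 granule genes, 1 of 9 synaptotagmins and 2 of 2 endosomal genes. Whether the roles differed in this was not tested. The split depends on the fit: Syt1, Syn2, Chga and Pcsk1n missed the threshold in edgeR (adjusted p = 0.0611, 0.0525, 0.0682 and 0.106). All of them were called lower under DESeq2 (adjusted p = 0.0109, 0.0263, 0.0363 and 0.0491 in that order). The 3 genes above 0 were Syt6 (0.94 ± 0.32, edgeR adjusted p = 0.109), Sypl (0.16 ± 0.07, edgeR adjusted p = 0.191) and Sv2b (0.15 ± 0.31, edgeR adjusted p = 0.818). For Syt6 and Sypl each H4K91Q library was above each H4K91R library. Syt13 differed by -0.07 ± 0.21, and its H4K91R libraries spread widely, with 23.3, 23.8 and 29.4 CPM in H4K91Q and 17.9, 24.4 and 39.5 CPM in H4K91R.

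**Figure D3:**
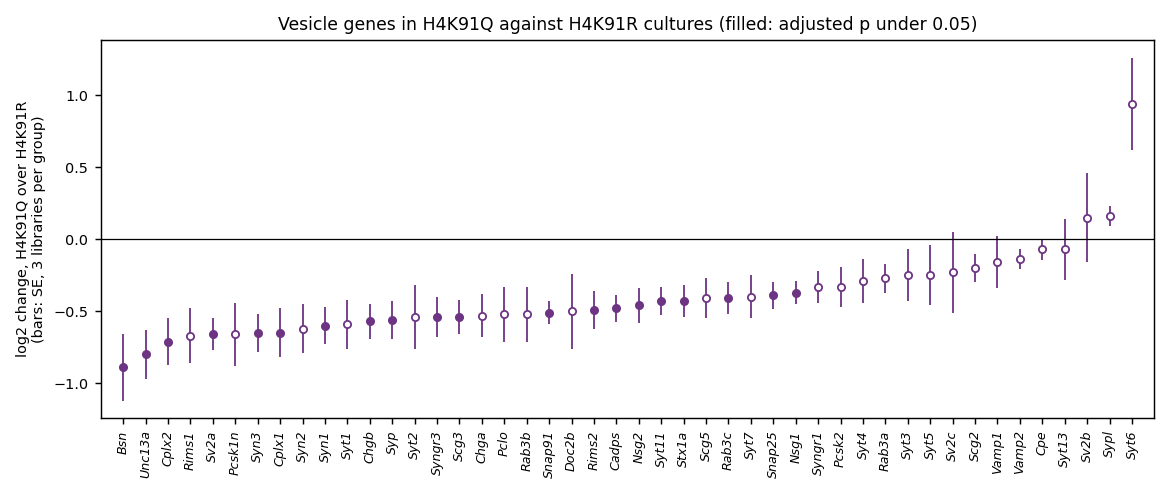
Log2 difference between H4K91Q and H4K91R for each of the 46 vesicle genes, in order of size, with SE bars; filled points passed the adjusted threshold. The points run from -0.89 for Bsn to 0.94 for Syt6, and 43 lie below 0.

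Neighbouring genes of the same pathways, from lists that hold none of the 46, did not move as a block. These lists and the 46 were chosen with earlier results of these data known, so the contrast between them is a description only. Of 143 such genes, 121 passed the filter: 41 were higher and 38 lower in H4K91R (median log2 change -0.08), and 37 were higher and 47 lower in H4K91Q (median -0.09). On library size alone, tried after the values were seen, the counts were 48 higher and 25 lower in H4K91R and 45 higher and 25 lower in H4K91Q, so small decreases among these genes rest on the scaling. Among 24 other SNAREs and their SM and disassembly proteins, 5 were higher and 5 lower in H4K91R, and 5 were higher and 7 lower in H4K91Q. Scaled by library size alone, 10 were higher and 4 lower in H4K91R, and 10 were higher and 1 lower in H4K91Q. Most H4K91Q decreases in this list thus rest on the scaling. Napb, the neuronal form of the SNARE disassembly factor SNAP, changed by 1.42 ± 0.13 in H4K91R and 1.12 ± 0.13 in H4K91Q. Stx3, Stxbp2 and Stxbp3, which serve secretion in many non-neuronal cells, were lower on the TMM scale. Their changes were -0.56, -0.38 and -0.52 in H4K91R and -0.24, -0.48 and -0.22 in H4K91Q.

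Of 20 other synaptotagmins and calcium-dependent regulators tested, 5 were higher and 8 lower in H4K91R, and 4 were higher and 8 lower in H4K91Q. Rph3a, a Rab3 effector, changed by 2.05 ± 0.29 and 1.31 ± 0.30, Syt9 by 1.25 ± 0.26 and 1.01 ± 0.25, and Syt16 by 1.78 ± 0.36 and 1.38 ± 0.36. Sytl2 and Sytl5, Rab27-binding proteins of epithelial and other secretory cells, were lower, by -1.77 ± 0.22 and -3.22 ± 0.36 in H4K91R and by -2.26 ± 0.22 and -3.17 ± 0.32 in H4K91Q. Esyt1, a tether between endoplasmic reticulum and plasma membrane, was lower by -0.66 and -0.73. Of 31 other membrane, active zone and Rab genes, 16 were higher and 7 lower in H4K91R, and 14 were higher and 9 lower in H4K91Q. With library size scaling, 18 were higher and 3 lower in H4K91R, and 15 were higher and 2 lower in H4K91Q. Brsk2, a presynaptic kinase, changed by 2.54 ± 0.18 and 1.78 ± 0.18, Erc2, an active zone scaffold, by 1.67 ± 0.12 and 1.19 ± 0.12, and Ppfia3, liprin-alpha 3, by 1.55 ± 0.12 and 0.92 ± 0.12. The Rab3 regulators Rab3ip, Rab3gap1 and Rab3gap2, which many cell types use, were lower on the TMM scale. Their changes were -0.63, -0.36 and -0.36 in H4K91R and -0.63, -0.29 and -0.46 in H4K91Q.

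Of 29 genes for vesicle endocytosis, 9 were higher and 11 lower in H4K91R, and 8 were higher and 15 lower in H4K91Q. With library size scaling, 9 were higher and 6 lower in H4K91R, and 10 were higher and 8 lower in H4K91Q. The neuronal dynamins Dnm1 and Dnm3 and the endophilin Sh3gl2 were higher, by 1.44, 1.5 and 1.84 in H4K91R and 0.89, 0.96 and 1.51 in H4K91Q. Picalm, the broadly expressed relative of the member Snap91, had 313, 289 and 238 CPM in H4K91R, 305, 264 and 256 CPM in H4K91Q and 623, 508 and 677 CPM in H4WT. It was lower by -1.10 ± 0.12 and -1.13 ± 0.12, and Ston1 and Synj2 were lower as well, by -1.27 and -0.94 in H4K91R and -1.43 and -1.24 in H4K91Q. Of 17 other granule and prohormone genes tested, 6 were higher and 7 lower in H4K91R, and 6 were higher and 8 lower in H4K91Q. Sez6l2, Ptprn2 and the peptide gene Sst were higher, by 2.10, 2.01 and 1.54 in H4K91R and 1.33, 1.33 and 0.94 in H4K91Q. Pam, which amidates peptides, Ptprn, a granule membrane protein, and the convertase Pcsk6 were lower, by -1.24, -0.77 and -1.39 in H4K91R and -1.48, -1.52 and -1.44 in H4K91Q. Granule genes of both directions were thus found in the same libraries, with Scg5 and Pcsk2 higher and Pam lower.

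Pairs of a neuronal gene and a broadly expressed relative were set side by side, put together after the values were seen and therefore given no test. In the 10 pairs shown the neuronal gene was higher in both mutants, which is no result, because the pairs were picked with the calls known. Stx1a, Rims1 and Cpe, called higher in neither mutant, are in no pair. The calls of the relatives were known at that point too, so their counts are no result either. The relative was lower in 8 pairs in H4K91R and in 9 in H4K91Q, and higher in 0. Among all genes tested, 25.1% were lower in H4K91R and 23.8% in H4K91Q, but counts from picked pairs cannot be weighed against these shares. On library size alone the relative was lower in 3 pairs in H4K91R and in 4 in H4K91Q, and higher in 0, and its log2 change was above 0 for Napa in H4K91R (0.04) and Vamp3 in H4K91Q (0.14). Snap23, the relative of Snap25, had 81.1, 79 and 79.5 CPM in H4K91R, 91.8, 88.8 and 85.1 CPM in H4K91Q and 110, 97 and 109 CPM in H4WT, a log2 change of -0.39 ± 0.07 and -0.24 ± 0.069. Vamp3, the relative of Vamp2, changed by -0.24 ± 0.07 in H4K91R and was not called in H4K91Q (-0.03 ± 0.069, edgeR adjusted p = 0.762). Furin, the convertase of the general secretory route, changed by -0.34 and -0.52, while Pcsk2 was higher.

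**Figure D4:**
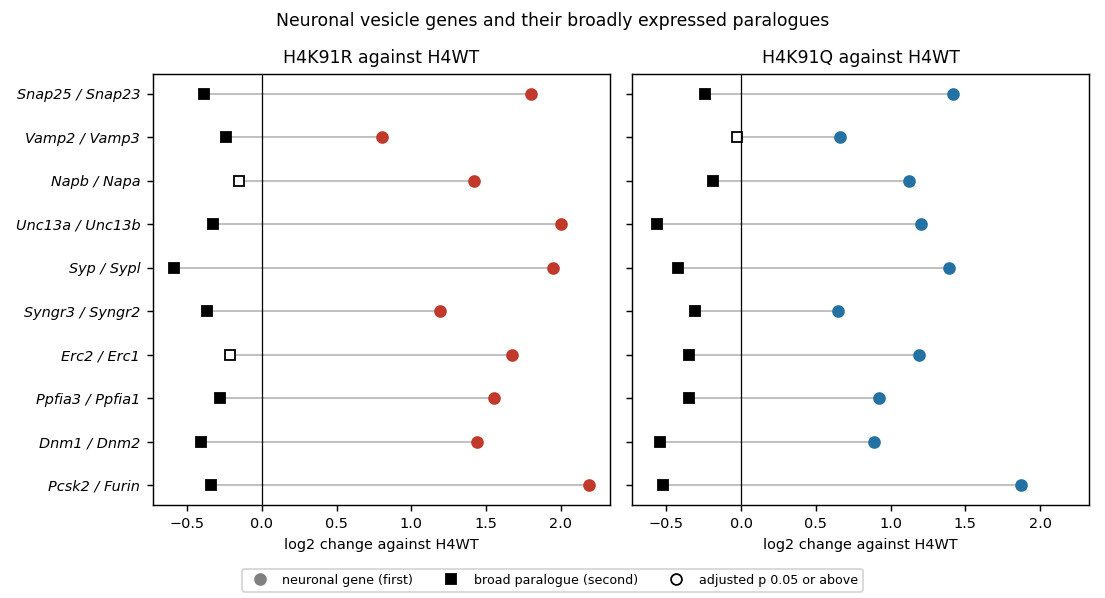
Log2 change against H4WT for 10 pairs of a neuronal vesicle gene (circle) and a broadly expressed relative (square), in H4K91R on the left and H4K91Q on the right; open symbols missed the adjusted threshold. The pairs were picked after the values were seen. Circles lie right of 0 and squares left of 0 in both panels on the TMM scale. On library size alone the squares of Napa in H4K91R and Vamp3 in H4K91Q would lie right of 0.

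The vesicle genes changed alongside other neuronal genes. Of the 26 pan-neuronal genes, 21 were higher and 2 lower in H4K91R and 20 were higher and 3 lower in H4K91Q, with median log2 changes of 1.94 and 1.44. Of the 46 vesicle genes, 11 had a change above that pan-neuronal median and 35 below it in H4K91R, and 9 and 37 in H4K91Q. Scg5, Nsg2, Scg3, Pcsk2, Chga, Rab3c and Cplx1 were among those above it in H4K91R. Between the mutants, 13 of the 26 pan-neuronal genes were lower in H4K91Q than in H4K91R and 0 were higher, with a median of -0.41.

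Marker lists of other cells differed in direction. All 9 tested smooth muscle markers were lower in both mutants, Myh11 by log2 -5.08 ± 0.27 in H4K91R and -5.17 ± 0.26 in H4K91Q. Of 12 neural progenitor and radial glia markers, 10 were higher and 1 lower in H4K91R, and 9 were higher and 2 lower in H4K91Q, and their sum was 1908 to 1990 CPM in H4K91R, 1612 to 1679 CPM in H4K91Q and 1901 to 2299 CPM in H4WT. Of 10 pluripotent cell markers, 9 were lower and 0 higher in H4K91R, and 7 were higher and 1 lower in H4K91Q, than in H4WT, with sums of 193 to 219 CPM in H4K91R, 329 to 480 CPM in H4K91Q and 301 to 388 CPM in H4WT. Fibroblast markers summed to 7300 to 8511 CPM in H4K91R, 7650 to 8523 CPM in H4K91Q and 9177 to 10222 CPM in H4WT, with 4 of 12 higher and 4 lower in H4K91R and 4 higher and 3 lower in H4K91Q. Of 10 tested epithelial markers, 8 were lower and 0 higher in each mutant, with sums of 911 to 1023 CPM in H4K91R, 994 to 1136 CPM in H4K91Q and 1538 to 1682 CPM in H4WT. Of 6 tested neural crest and Schwann markers 4 were higher in each mutant, 1 was lower in H4K91R and 0 in H4K91Q (68.1 to 78.3 CPM in H4K91R, 62 to 63.8 CPM in H4K91Q and 14.5 to 19.4 CPM in H4WT), and of 9 tested astrocyte and oligodendrocyte markers 5 were higher and 1 lower in each mutant (646 to 734 CPM in H4K91R, 649 to 735 CPM in H4K91Q and 526 to 615 CPM in H4WT). Their part in the change of the vesicle genes was not tested.

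Granins and convertases are also made by endocrine cells, so 12 endocrine markers were read, which include Chga and Chgb themselves. Ins1 and Ins2, the insulin genes, had a count of 0 in all 9 libraries, and the list summed to 49.6 to 60.2 CPM in H4K91R, 36.6 to 41.8 CPM in H4K91Q and 16.7 to 20 CPM in H4WT. Of the 5 tested, 3 were higher in each mutant, and Chga and Chgb were among these. The count and the sums thus rest in part on the vesicle genes themselves, and neither is given without them. They cannot show whether endocrine cells differed apart from the vesicle genes. Of 12 genes that respond to stress and handling, 8 were lower and 1 higher in H4K91R, and 7 were lower and 2 higher in H4K91Q, with sums of 3561 to 3660 CPM in H4K91R, 3825 to 3903 CPM in H4K91Q and 4195 to 4247 CPM in H4WT, and their part was not tested. Rest, the repressor that binds RE1, was at 31.1, 31.4 and 31.6 CPM in H4K91R, 37.1, 27.3 and 38.6 CPM in H4K91Q and 36.9, 35.4 and 48.6 CPM in H4WT. It was called in neither mutant (log2 -0.35 ± 0.14, edgeR adjusted p = 0.0581, in H4K91R; -0.22 ± 0.14, 0.21, in H4K91Q). Of the 10 REST axis genes, 5 were higher and 2 lower in H4K91R and 5 were higher and 1 lower in H4K91Q. Rcor2, a corepressor partner of REST in stem cells, changed by 1.13 ± 0.10 and 1.02 ± 0.098.

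**Figure D5:**
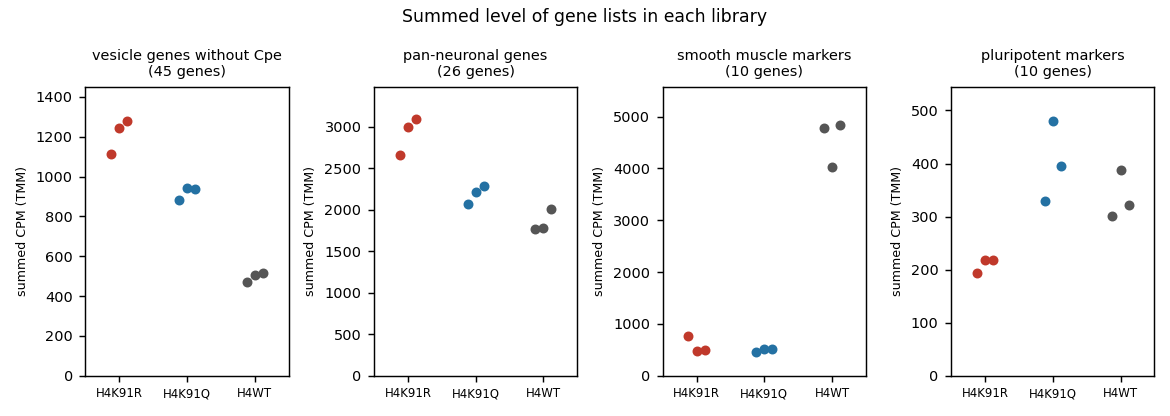
Summed CPM of 4 gene lists in each library (points; H4K91R red, H4K91Q blue, H4WT grey), each panel starting at 0. Vesicle genes without Cpe and pan-neuronal genes are highest in H4K91R and lowest in H4WT, smooth muscle markers are highest in H4WT, and pluripotent markers are lowest in H4K91R.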

How the data were processed

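The deposited table holds expected counts per gene for 9 libraries, whole numbers by Entrez ID; the authors used Salmon 0.8.2 and mm10, per the submitters' processing notes, which also name DESeq2 without a role. The sources used here name no annotation, strand setting or read length. Salmon splits reads shared by similar genes, so close relatives carry some uncertainty. The 46 members and all lists were chosen with earlier results of these data known.

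RefSeq symbols were matched for 24045 of 24100 IDs. Genes were filtered in edgeR 4.0.16 (R 4.3.3; filterByExpr by group, minimum count 10), leaving 14761, and scaled by TMM (factors 0.911 to 1.06). The quasi-likelihood fit took all 9 libraries together, with a mean for each group (biological coefficient of variation 8.82%), with two-sided tests. CPM per kb uses the union of exons in the GENCODE annotation of GRCm38. Replicates of a group differed by 4.68 to 12.3 chi-square units per gene, so no library was a copy. Alternatives were RLE and library size scaling, no filter, DESeq2 1.42.0, limma-voom (limma 3.58.1), a replicate block, compared groups only and each library left out.

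Values in every library are given for the 4 members per role with the smallest adjusted p in H4K91R, members called against their role, and members called between the mutants; Syt6, Rims1, Syt13 and, outside the 46, Picalm, Snap23 and Rest were added after their values were seen. Of each neighbouring pathway list, up to 3 called genes per direction at 1 CPM or more, ranked by adjusted p, are named; Vamp3 and Furin were added with the pairs. The script was tested on simulated data. The HA-tagged transgene was not analysed here, and some genes of these lists and 2 pairs are not reported here.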

Additional observations from a re-analysis of the deposited data

Results flagged for a closer look

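Stx1a, Atp6v0a1 and Vgf had log2 changes of opposite sign in the mutants, with a difference between H4K91Q and H4K91R that passed the test; only Vgf of the 3 also passed against H4WT in both mutants. Stx1a had a log2 difference of -0.43 ± 0.11 between H4K91Q and H4K91R (edgeR adjusted p = 0.0356), with changes of -0.30 in H4K91Q and 0.12 in H4K91R against H4WT, of which that in H4K91R missed the threshold. Atp6v0a1, a subunit of the proton pump that acidifies vesicles, was at 109, 105 and 124 CPM in H4K91Q, 149, 144 and 132 CPM in H4K91R and 122, 132 and 137 CPM in H4WT. Its difference between H4K91Q and H4K91R was -0.34, with -0.22 ± 0.08 in H4K91Q (edgeR adjusted p = 0.0415) and 0.12 ± 0.081 in H4K91R (edgeR adjusted p = 0.249) against H4WT. Vgf, a granin-like granule protein, was at 14.3, 19.1 and 17.8 CPM in H4K91Q, 29.3, 26.7 and 29.3 CPM in H4K91R and 21.2, 23.6 and 23.4 CPM in H4WT. Its difference was -0.74, with -0.42 ± 0.11 in H4K91Q (edgeR adjusted p = 0.00764) and 0.32 ± 0.11 in H4K91R (edgeR adjusted p = 0.0321) against H4WT.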

How the results depend on the processing

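With each of the 9 libraries left out in turn, the members called higher against H4WT numbered 40 to 42 in H4K91R and 36 to 39 in H4K91Q, and those called lower 1 to 2 and 2 to 3. Between H4K91Q and H4K91R they numbered 0 to 0 higher and 2 to 22 lower, where all genes gave 110 to 543 higher and 68 to 550 lower. Library size scaling left 1 member lower in H4K91R and 1 in H4K91Q. The replicate block called 1 member, Syt6, higher in H4K91Q than in H4K91R (edgeR adjusted p = 0.0421) and 24 lower. Among all genes the block called 448 higher and 563 lower. Members called higher against H4WT changed from 42 and 39 to 42 and 40. Same-numbered libraries had correlations of deviations from -0.163 to 0.198, 5 of 9 over 0.1, and 10 of 18 comparisons were best with their own number. Those of replicate 1 were 0.198 (H4K91R and H4K91Q), 0.174 (H4K91R and H4WT) and 0.172 (H4K91Q and H4WT), and those of replicates 2 and 3 ran from -0.163 to 0.198. The main fit did not pair libraries by number, and whether same-numbered libraries share a batch was not tested. Small differences between H4K91Q and H4K91R changed sign: Syt13 (-0.07; 0.02 under limma-voom, and -0.32 without H4K91R replicate 1 to 0.28 without H4K91R replicate 3), Sv2b (0.15; -0.02 without H4K91R replicate 3 to 0.41 without H4K91R replicate 2) and Sv2c (-0.23; -0.56 without H4K91Q replicate 3 to 0.02 without H4K91Q replicate 1). The cause of these changes was not tested. Depth limits Vamp1, Syt2, Syt5, Syt6, Sv2b and Sv2c, with means under 4 CPM in every group.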
